A study of Mus musculus with 12 samples.

Results

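The 10 genes described here are core parts of the Notch pathway: the receptors Notch1, Notch2 and Notch3, the ligands Dll1, Jag1 and Dner, the DNA-binding protein Rbpj, and the target genes Hes1, Hes5 and Hey1. They were chosen by gene name, and all 10 were found among the 56941 genes of the deposited table, each as 1 protein-coding row. Levels come from RNA sequencing of hippocampal astrocytes of naive adult males (mouse), sorted by ACSA-2, a surface antigen of astrocytes, with libraries made by SMART-Seq V4, a kit for very small amounts of RNA. The libraries labelled Ctrl came from Tnfrsf1b fl/fl mice, which carry floxed alleles of the gene for the TNF receptor TNFR2. The libraries labelled cKO came from GfapcreERT2:Tnfrsf1b fl/fl mice, in which a Cre recombinase that needs an estrogen receptor ligand for activity is driven by the promoter of Gfap, a gene of astrocytes and of neural stem cells. All mice carry the floxed alleles, so the groups differ by the Cre transgene, and the labels state neither the induction nor the exact age. Each group had 3 A numbers (A1, A2 and A8 in Ctrl, A4, A9 and A10 in cKO) with 2 libraries each, S1 and S2. The titles number S1 as replicate 1 and S2 as replicate 2 in every A number, and what A and S stand for is not in the labels. Each A number was taken as 1 unit, the average of its libraries, with n = 3 units a genotype. Since nothing says that the A numbers are separate mice, the tests measure only the spread between these units, which may be technical.

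Notch receptors are cut by proteases once a ligand on a neighbouring cell binds, and the freed intracellular domain joins Rbpj, a DNA-binding protein, and turns on genes of the Hes and Hey families. Those genes encode repressors that hold back neuronal differentiation. In the brain the pathway is known for keeping neural stem cells undifferentiated and for promoting the astrocyte fate, and its receptors remain expressed in mature astrocytes.

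Hes5 is a direct target through Rbpj, so the region before its start is shown, with that of Hey2, another Hey family gene, because Hes5 had the highest level of the 3 targets and Hey2 the largest difference of the pathway's targets. The sequences are RefSeq windows of 300 bases, from upstream of the start to just past it, in build GRCm38.p6. Capitals mark GTGGGAA, letters of the site that Rbpj binds, searched on both strands, where TTCCCAC is the same site on the other strand. The Hes5 window is chr4:154960673-154960972 on the plus strand and the Hey2 window chr10:30842734-30843033 on the minus strand.
Hes5: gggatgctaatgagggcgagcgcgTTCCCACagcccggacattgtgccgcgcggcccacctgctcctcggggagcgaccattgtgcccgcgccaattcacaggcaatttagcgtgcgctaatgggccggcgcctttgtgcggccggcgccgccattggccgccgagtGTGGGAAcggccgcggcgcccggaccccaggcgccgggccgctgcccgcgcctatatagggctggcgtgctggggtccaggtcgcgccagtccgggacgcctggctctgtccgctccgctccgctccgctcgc
Hey2: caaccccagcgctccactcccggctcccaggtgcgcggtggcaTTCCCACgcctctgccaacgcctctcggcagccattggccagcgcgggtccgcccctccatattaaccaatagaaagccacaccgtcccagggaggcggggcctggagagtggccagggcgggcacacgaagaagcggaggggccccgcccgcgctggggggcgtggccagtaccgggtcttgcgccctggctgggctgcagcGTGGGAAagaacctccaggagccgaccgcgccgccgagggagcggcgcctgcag
Each window held 2 matches, in opposite orientations. In Hes5 they began 226 and 83 bases before the start. In Hey2 they began 207 and 4 bases before it, the latter running across the start. Of all 32851 windows in the table, 6.38% held at least 1 match and 0.256% held at least 2. Counted by gene, 1958 of the 27025 genes with a window held a match. Windows were found for 8 of the 10 Notch genes, and only that of Hes5 held a match; Hes1 and Hey1 were not among the 8. Of 60 other pathway genes with a window, 6 held a match: Hey2, Psen2, Aph1a, Spen, Lfng and Hes7. A match describes letters in the window and not binding.

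Recovered depth, worked out from the steps between low values, was 17311884 to 35323303 reads per library, and 21342 to 26668 genes were above 0. The gene targeted in cKO, Tnfrsf1b, was listed at 0 in 9 of the 12 libraries and had at most 4 reads in a Ctrl library, so its loss could not be checked. The A4 libraries, labelled cKO, had 10 and 22 reads. Microglia, which a Gfap-driven Cre would leave unrecombined, can also carry Tnfrsf1b. The 8 microglial markers summed to 19.1 FPKM in A4, 8.94 and 7.07 FPKM in A9 and A10, and 4.20 to 5.66 FPKM in Ctrl. These sums did not overlap, but of the single markers only P2ry12 (1.17 to 4.08 FPKM in Ctrl, 4.97 to 9.22 FPKM in cKO) did not. The list's mean log2(FPKM + 1) overlapped, at 0.313 to 0.635 in Ctrl and 0.622 to 1.41 in cKO (exact permutation p = 0.3, two-sided, n = 3 each). In A8, 6 of the 8 were at 0. The part of microglia in the Tnfrsf1b reads was not tested. Gfap, whose promoter drives the Cre, was at 78.5 ± 29.0 in Ctrl and 117 ± 33.9 in cKO (FPKM, SD, n = 3 each, limma adjusted p = 0.718). The sort held astrocyte genes above all. The 12 astrocyte markers summed to 3984 to 4925 FPKM (fragments counted for a gene, divided by its length and by the assigned total) in Ctrl units and 4776 to 5478 FPKM in cKO units, and all 12 were above 0 in every unit. The 12 oligodendrocyte markers summed to 1094 to 2362 FPKM in Ctrl and 313.0 to 752.5 FPKM in cKO, without overlap. A8 stood apart from the other Ctrl units: its 9 endothelial markers summed to 5.48 FPKM against 42.6 and 61.8 FPKM, and its immediate-early genes, which respond to tissue dissociation, to 309 FPKM against 1032 and 1187 FPKM. In bulk samples, fewer cells of a type and less RNA per cell cannot be told apart. The plot of marker levels shows these lists by unit.

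**Figure D1:**
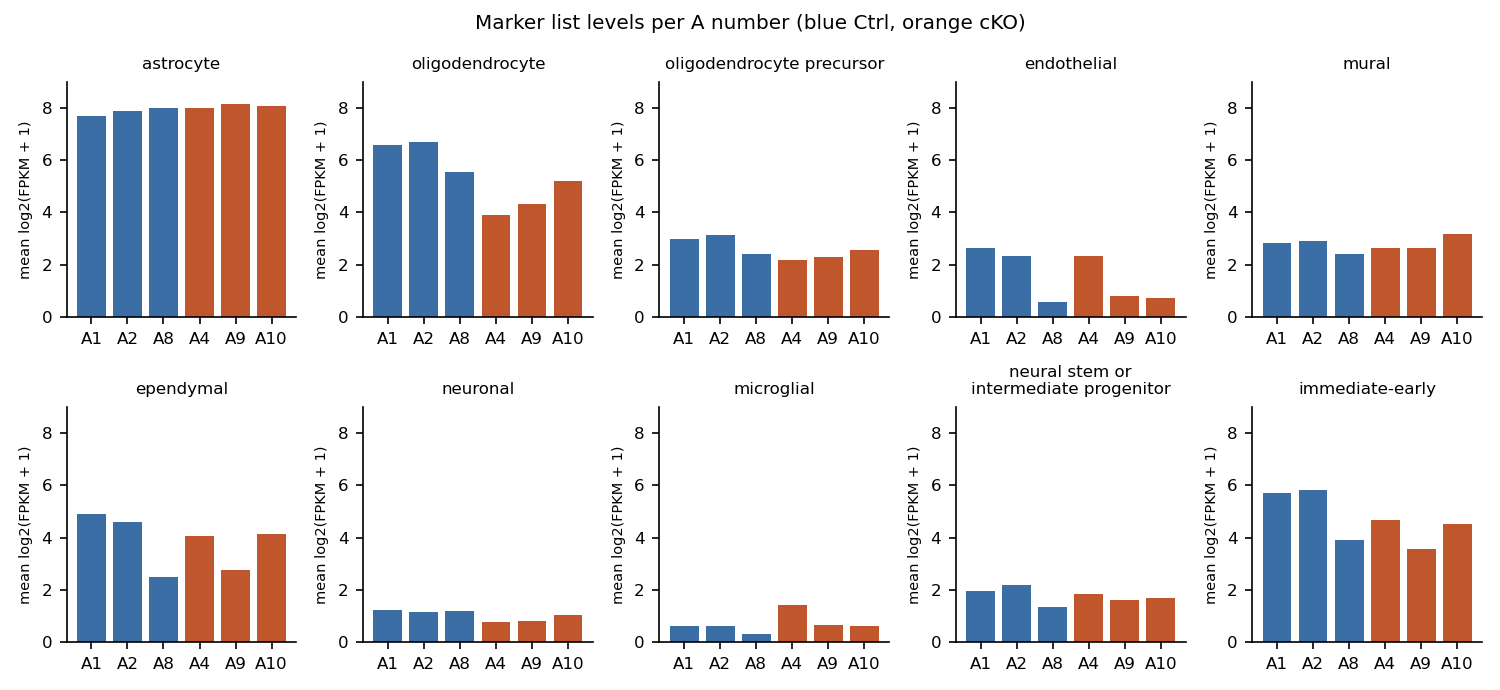
Mean log2(FPKM + 1) of 10 marker lists in each A number, with Ctrl in blue and cKO in orange. Astrocyte markers lay between 7.69 and 8.14 in every unit, oligodendrocyte markers were lower in each cKO unit than in each Ctrl unit, and A8 had the lowest endothelial, ependymal and mural levels of the Ctrl units.

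The comparison of cKO with Ctrl asks whether loss of TNFR2 from Gfap-promoter cells goes with a difference in Notch pathway transcripts. No Notch gene passed the test. Of the 10 genes, 0 had a limma adjusted p under 0.05, where 0 of all 17540 tested genes (0%) did, and 1, Notch2, had an unadjusted p under 0.05, where 7.69% of all tested genes did. All 10 genes reached the minimum mean of 1 FPKM. When the 12 libraries were fitted singly, with a random effect for the A number, again 0 of the 10 were called, where 0.639% of all tested genes were, and 0 with that replicate number added as a block, where 0.456% were. The estimated differences lay between -0.51 and 0.33 on the log2 scale, 6 of them above 0 and 4 below, with a median of 0.07 against -0.01 over all tested genes. Across all tested genes, unadjusted calls were 523 higher and 826 lower in cKO, but 761 and 625 under upper quartile scaling, and 376 and 1007 with libraries rescaled to one sum of FPKM. The 95% intervals, drawn in the plot of fold changes, show what sizes these data allow.

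**Figure D2:**
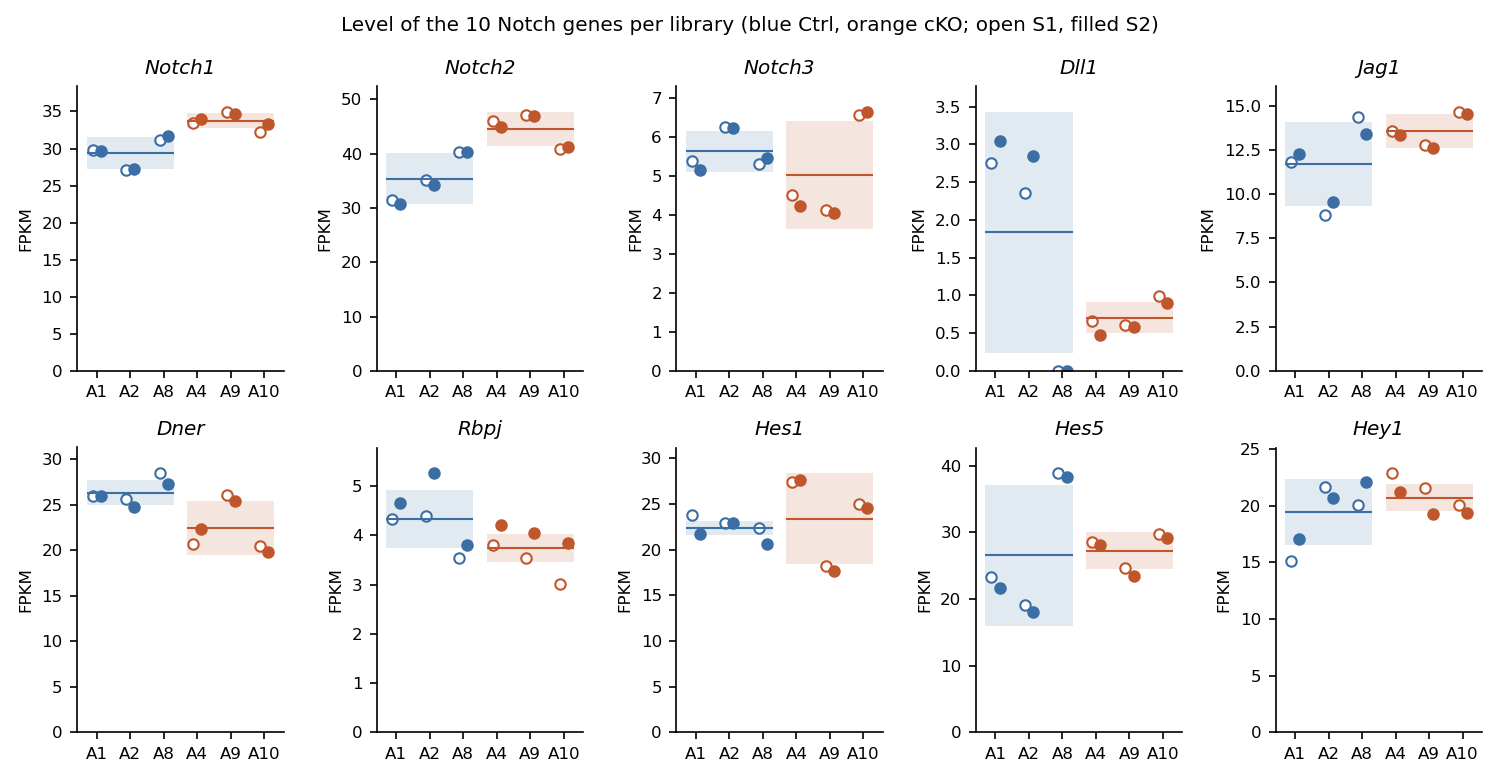
FPKM of the 10 Notch genes in each of the 12 libraries, with S1 as open and S2 as filled points, Ctrl in blue and cKO in orange; lines are group means of the 3 A numbers and bands 1 SD. Notch1 and Notch2 separate the groups, Dll1 is at 0 in A8, and Hes5 is highest in A8.

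Among the receptors, Notch2 had the highest level of the 10 genes. It stood at 31.1, 34.7 and 40.3 FPKM in Ctrl A1, A2 and A8, and at 45.4, 47.1 and 41.0 FPKM in cKO A4, A9 and A10. Every cKO unit was above every Ctrl unit, narrowly so for A10 and A8, and the same held for the single libraries. The means were 35.4 ± 4.65 in Ctrl and 44.5 ± 3.16 in cKO (FPKM, SD, n = 3 each). The log2 fold change of Notch2 was 0.33 (SE 0.13, 95% interval 0.01 to 0.64, limma adjusted p = 0.629), that is 1.26-fold with an interval of 1.01 to 1.56. The gene (ENSMUSG00000027878, chromosome 3, start 97920843, end 98057677, plus strand) had at least 6456.5 recovered reads in each library. Its exons share 541 bases, 5.02% of their length, with Gm42820, a gene on the same strand at a mean of 8.81 FPKM. Reads in that stretch are uncertain. Coordinates of genes are those of the deposited table, and the submitters' processing notes name mm10 and GRCm38. However, 0 of the 10 genes had the start and end of GENCODE M21 on GRCm38. The table starts Hes5 at 155045380, while the GRCm38.p6 window of Hes5 ends at 154960972. Gene positions therefore cannot be set against those of the windows, and which build the table follows is not settled.

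Notch1, the receptor most studied in neural stem cells, lay next in level. It measured 29.7, 27.2 and 31.4 FPKM in Ctrl A1, A2 and A8 and 33.7, 34.8 and 32.8 FPKM in cKO A4, A9 and A10. The groups did not overlap here either, with A2 lowest and A9 highest. Notch1 had a log2 fold change of 0.19 (SE 0.11, 95% interval -0.06 to 0.45, limma adjusted p = 0.764), on means of 29.4 ± 2.14 and 33.8 ± 1.004 FPKM (SD, n = 3 each). Units of the groups did not overlap in 2 of the 10 Notch genes, both higher in cKO, where 13.0% of all tested genes did not overlap and 5.73% were higher. Astrocyte markers had the same direction: the list's score was 0.22 higher in cKO on the log2 scale (exact permutation p = 0.1, two-sided, the smallest that 3 against 3 units allow, n = 3 each). Subtracting that score in each unit was an alternative chosen after seeing the data. It lowers every estimate alike and moved the median of all tested genes to -0.22. It therefore cannot show the part of astrocyte RNA in the Notch1 and Notch2 differences, which was not tested. After this subtraction the difference was -0.02 for Notch1 and 0.11 for Notch2 (limma adjusted p = 0.960 and 0.756). With the oligodendrocyte score as a covariate it was 0.04 for Notch1 and -0.01 for Notch2 (limma adjusted p = 0.978 and 0.996). That score did not overlap between the groups. Exons of Notch1 (ENSMUSG00000026923, chromosome 2, start 26347915, end 26406675, minus strand) share 414 bases with Gm13568 and 1074 bases with 0610009E02Rik, noncoding genes on the other strand. SMART-Seq V4 does not mark the strand, so reads in those stretches cannot be assigned, but they make up 2.91% and 7.55% of the Notch1 exonic length.

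Notch3 is best known as the receptor of mural cells, the pericytes and smooth muscle cells of vessels. Its level was 5.27, 6.23 and 5.38 FPKM in Ctrl A1, A2 and A8, and 4.38, 4.08 and 6.60 FPKM in cKO A4, A9 and A10. A10 was the highest unit and A9 the lowest, both cKO, so the cKO units enclosed the Ctrl units. For Notch3 it was -0.16 on the log2 scale (SE 0.20, 95% interval -0.64 to 0.32, limma adjusted p = 0.927), and leaving out 1 unit it ran from -0.34 without A10 to -0.05 without A9. The 9 mural markers were all above 0 in every unit and summed to 69.7 to 116 FPKM in Ctrl and 95.3 to 146 FPKM in cKO. A10, the unit highest in Notch3, also had the highest mural sum, but A9, lowest in Notch3, had 109 FPKM. The part of mural cells in the Notch3 level was not tested.

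**Figure D3:**
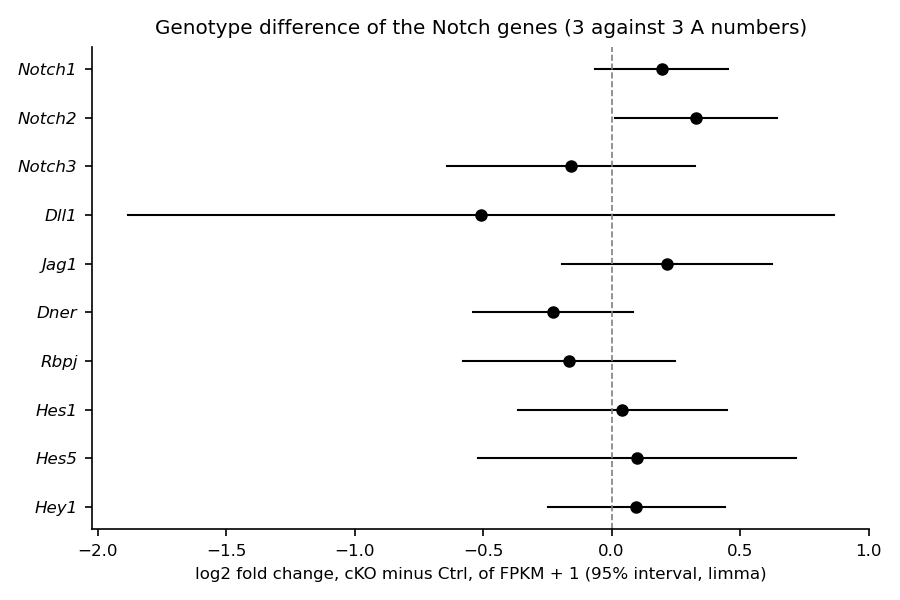
Log2 fold change of each Notch gene, cKO minus Ctrl, on the FPKM + 1 scale, with 95% intervals from limma on 3 against 3 A numbers. The interval of Notch2 lies just above 0, those of the other 9 genes include 0, and that of Dll1 is the widest.

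Of the ligands, Jag1, which activates Notch receptors, was at 12.04, 9.18 and 13.9 FPKM in Ctrl A1, A2 and A8 and at 13.5, 12.7 and 14.6 FPKM in cKO A4, A9 and A10. A2 was low and A8 lay among the cKO units. Jag1 had a log2 fold change of 0.22 (SE 0.17, 95% interval -0.19 to 0.62, limma adjusted p = 0.863). It was 0.06 without A2, 0.34 without A8 and 0.002 with the oligodendrocyte score as a covariate (limma adjusted p = 0.965, 0.411 and 1). The oligodendrocyte score did not overlap between the groups. The gene (ENSMUSG00000027276) lies on chromosome 2, start 136923376, end 136958564, minus strand.

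Dner, a transmembrane protein with EGF-like repeats known from neurons and described as a noncanonical Notch ligand, was at 26.0, 25.2 and 27.8 FPKM in Ctrl A1, A2 and A8. In cKO A4, A9 and A10 it was at 21.5, 25.7 and 20.1 FPKM. A4 and A10 were below all Ctrl units, and A9 lay inside the Ctrl range. Dner differed by -0.23 on the log2 scale (SE 0.13, 95% interval -0.54 to 0.08, limma adjusted p = 0.774). The 9 neuronal markers together summed to 14.4 to 18.1 FPKM in Ctrl and 9.27 to 12.49 FPKM in cKO, with Gad2 at 0 in A1 and A4, so in every unit Dner alone was above that sum. Dner (ENSMUSG00000036766, chromosome 1, start 84347560, end 84673942, minus strand) is a gene of neurons too, and the part of neuronal RNA in its level was not tested.

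Dll1, the Delta ligand known from neural progenitors, had the lowest level of the 10 genes and the widest spread. It was at 2.90 and 2.60 FPKM in Ctrl A1 and A2 but was listed at 0 in both A8 libraries, where 3 reads would be 0.0363 FPKM in S1 and 0.0226 FPKM in S2. In cKO A4, A9 and A10 it was at 0.572, 0.595 and 0.942 FPKM. Ctrl therefore held both the highest values and the lowest, and the cKO units lay between them. The libraries of A1 and A2 had 172 to 400 reads of Dll1 and those of cKO 45 to 110. The log2 fold change of Dll1 was -0.51 (SE 0.58, 95% interval -1.88 to 0.87, limma adjusted p = 0.911), and each Ctrl unit moved it: it was -1.14 without A8 (SE 0.26, limma adjusted p = 0.175), -0.16 without A1 and -0.22 without A2 (limma adjusted p = 0.980 and 0.974). With a pseudocount of 0.1 it was -0.25 (limma adjusted p = 0.987). The gene (ENSMUSG00000014773) lies on chromosome 17, start 15587616, end 15597134, minus strand.

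Markers of cell types that can carry Dll1 were set beside it, and they differed among themselves. Gpr17, a gene of newly forming oligodendrocytes, was at 2.17 and 2.54 FPKM in A1 and A2, 0.0135 FPKM in A8, and 0.353 to 0.834 FPKM in the cKO units. Eomes, a gene of intermediate neuronal progenitors, was at 0.844 and 0.493 FPKM in A1 and A2, 0.00191 FPKM in A8, and 0.205 to 0.404 FPKM in cKO. Both had A8 lowest and the cKO units between, as Dll1 did, and both were named after their values were seen. Sox4 of the progenitor list had the same order: 9.08 and 9.99 FPKM in A1 and A2, 2.17 in A8, 4.27 to 8.36 in cKO. So did Dcx, at 0.715 and 0.465 FPKM in A1 and A2, 0 in A8 and 0.0242 to 0.326 FPKM in cKO. Other genes of the same lists did not. Olig1 (79.5 FPKM), Olig2 (32.9 FPKM) and Sox10 (12.6 FPKM) were each higher in A8 than in any cKO unit, and Hopx was lowest in A1 (33.4 FPKM). The whole precursor list of 7 genes summed to 127 to 167 FPKM in Ctrl and 78.2 to 106 FPKM in cKO, with C1ql1 at 0 in A8 and A10. The progenitor list of 8 genes summed to 53.0 to 67.0 FPKM in Ctrl and 65.9 to 80.6 FPKM in cKO, with Dcx and Tfap2c at 0 in A8. These sums, to which Hopx gave the most in the progenitor list, did not follow Dll1. By mean log2(FPKM + 1) the progenitor list did: 1.96 and 2.19 in A1 and A2, 1.36 in A8, and 1.62 to 1.83 in cKO. The precursor list did not, at 2.43 in A8 and 2.20 to 2.55 in cKO. Of all 17540 tested genes, 196 (1.12%) were likewise at 0 in both A8 libraries and above 3 reads in the 10 others. The part of these cells in the Dll1 level was not tested.

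Rbpj, the DNA-binding partner through which all Notch receptors act, lay near the middle of the tested genes in level. It was at 4.50, 4.83 and 3.67 FPKM in Ctrl A1, A2 and A8 and at 4.01, 3.79 and 3.43 FPKM in cKO A4, A9 and A10. A1 and A2 were highest, and A8 was below 2 of the cKO units. Rbpj had a log2 fold change of -0.17 (SE 0.17, 95% interval -0.58 to 0.25, limma adjusted p = 0.901), -0.26 without A8 and -0.10 without A2. Rbpj differed between the libraries of a unit more than the other 9 genes did: S2 was above S1 in 6 of 6 units, by up to 0.27 on the log2 scale, while its whole range over the units was 0.40. The gene (ENSMUSG00000039191, chromosome 5, start 53623494, end 53814704, plus strand) has pseudogenes, Rbpj-ps1 and Rbpj-ps3, in the same table, so reads in stretches they share are uncertain.

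None of the 3 target genes separated the groups as Notch1 and Notch2 did. Hes1, a repressor induced by Notch and also by other signals, was at 22.8, 22.9 and 21.5 FPKM in Ctrl A1, A2 and A8, the smallest spread of the 10 genes in that group on the log2 scale. In cKO A4, A9 and A10 it was at 27.5, 17.9 and 24.8 FPKM, so that the cKO units lay on both sides of the Ctrl units. Hes1 differed by 0.04 on the log2 scale (SE 0.17, 95% interval -0.36 to 0.45, limma adjusted p = 0.982), and it was -0.08 without A4 and 0.21 without A9. A9, which had the highest Notch1 and Notch2, had the lowest Hes1. Immediate-early genes, whose list sums ran from 225 FPKM in A9 to 563 FPKM in A4 among the cKO units, took the same order as Hes1 there. In Ctrl they also took the order of Hes1, but over 309 to 1187 FPKM, where Hes1 spanned 21.5 to 22.9 FPKM. Their part in the Hes1 level was not tested. The gene (ENSMUSG00000022528) lies on chromosome 16, start 29883202, end 29886614, plus strand.

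Hes5, a target widely used as a readout of Notch in neural cells, had the highest level of the targets, and A8 was its highest unit. It was at 22.4 and 18.6 FPKM in Ctrl A1 and A2 but at 38.5 FPKM in A8, while cKO A4, A9 and A10 were at 28.3, 24.0 and 29.4 FPKM. All cKO units were above A1 and A2 and below A8. The group means were close, 26.5 ± 10.6 in Ctrl and 27.3 ± 2.84 in cKO (FPKM, SD, n = 3 each). The log2 fold change of Hes5 was 0.10 (SE 0.26, 95% interval -0.52 to 0.72, limma adjusted p = 0.970). It was 0.39 without A8, 0.02 without A1 and -0.11 without A2 (limma adjusted p = 0.323, 0.995 and 0.965). In A8 the ligand Dll1 was at 0 while Hes5 was at its highest.

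The Hes5 value carries a further uncertainty. Hes5 (ENSMUSG00000048001, chromosome 4, start 155045380, end 155046828, plus strand) shares 433 exonic bases, 31.8% of its exonic length, with Gm20421, a long noncoding gene on the other strand. As the kit does not mark the strand, reads from these 2 genes cannot be told apart there. Gm20421 was at 15.7, 14.3 and 36.8 FPKM in Ctrl A1, A2 and A8 and at 17.3, 13.7 and 20.3 FPKM in cKO A4, A9 and A10. It too was highest in A8, as the plot of both genes shows; it was named after its values were seen.

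**Figure D4:**
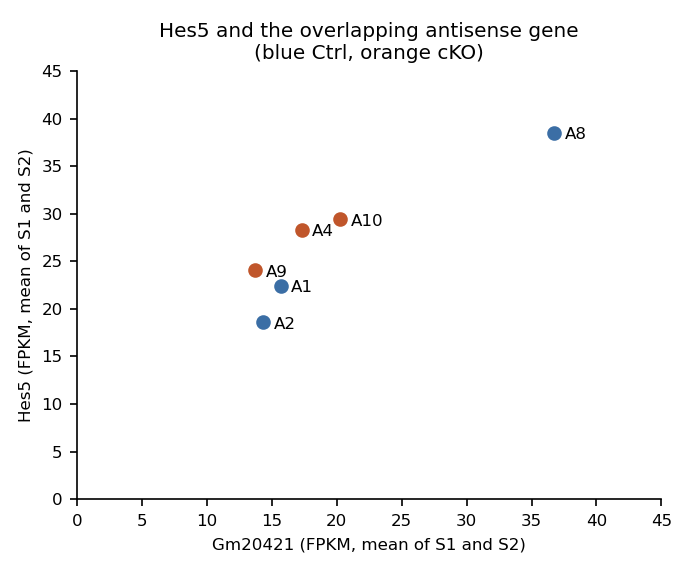
Level of Hes5 against that of the overlapping antisense gene Gm20421, each point the mean FPKM of S1 and S2 of 1 A number (Ctrl blue, cKO orange). A8 is highest in both genes, at 38.5 and 36.8 FPKM, and the other 5 units lie between 18.6 and 29.4 FPKM of Hes5.

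Hey1, a Notch target of astrocytes and of vessels, was the steadiest of the targets. It was at 16.1, 21.2 and 21.1 FPKM in Ctrl A1, A2 and A8 and at 22.0, 20.4 and 19.7 FPKM in cKO A4, A9 and A10. A1 was low, and the other 5 units lay close together. Hey1 had a log2 fold change of 0.10 (SE 0.14, 95% interval -0.25 to 0.44, limma adjusted p = 0.943), and it was -0.03 without A1. For Hes1, Hes5 and Hey1 the intervals leave room for differences of up to 1.36-fold, 1.65-fold and 1.36-fold upward and down to 0.777-fold, 0.698-fold and 0.842-fold. The gene (ENSMUSG00000040289) lies on chromosome 3, start 8728419, end 8732316, minus strand.

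The order of levels over the 12 libraries ran from Notch2 (39.9 FPKM) through Notch1 (31.6), Hes5 (26.9), Dner (24.4), Hes1 (22.9), Hey1 (20.1), Jag1 (12.6), Notch3 (5.32) and Rbpj (4.04) to Dll1 (1.27). FPKM is per gene length, counted over all annotated exons whether used or not, so levels of different genes compare only roughly. Notch2 was above 96.2% of the tested genes and Notch1 above 94.8%, while Notch3 was above 57.4% and Rbpj above 47.2%. Neighbours in that order kept it in 6 of 6 units except in the middle, where Notch1 was above Hes5 in 5 units, Hes5 above Dner in 3, Dner above Hes1 in 4 and Hes1 above Hey1 in 5. Hes5, Dner, Hes1 and Hey1 were thus not set apart by the spread between units. Between units the 10 genes had a median SD of 0.21 on the log2 scale, against 0.33 over all tested genes. The 53 other pathway genes tested had 0.20, so the lower spread was not particular to the 10. Genes of like level were not compared. Among the 10, Dll1 (0.76) and Hes5 (0.35) were above 0.33.

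The other genes of the pathway were taken from lists by role, 73 genes of which 53 reached the minimum level. Of these 53, 0 had a limma adjusted p under 0.05 (0% of all tested genes), and 3 had an unadjusted p under 0.05, 1 higher and 2 lower, where 2.98% of all tested genes were higher and 4.71% lower. Their median difference was -0.02 on the log2 scale. Units did not overlap in 5 genes higher in cKO (Psenen, Psen2, Pofut1, Fbxw7 and Tle4) and 3 lower (Epn2, Ctbp1 and Hey2), where 5.73% and 7.26% of all tested genes were so; Psen2, Pofut1, Fbxw7 and Ctbp1 were named after their values were seen. The plot by role shows them.

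**Figure D5:**
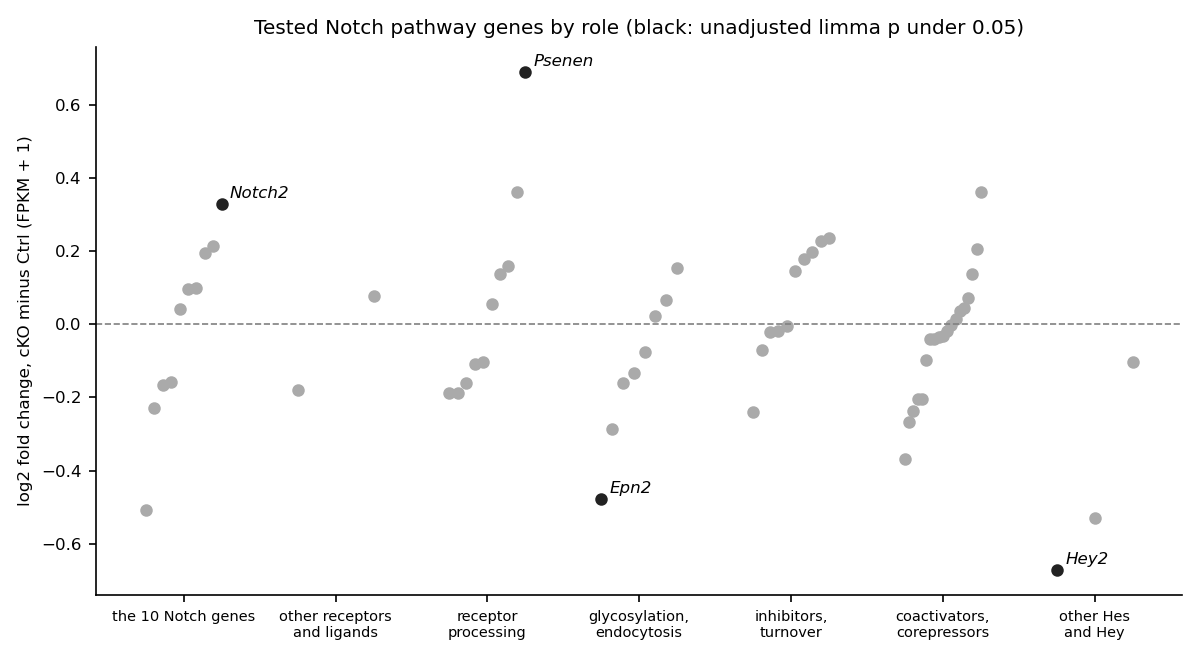
Log2 fold change, cKO minus Ctrl (FPKM + 1), of tested Notch genes, grouped by role in the pathway; black points have an unadjusted limma p under 0.05 and none passed after adjustment. Psenen (0.69) is the highest and Hey2 (-0.67) the lowest, with Notch2 (0.33) and Epn2 (-0.48) the other black points.

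Receptor processing was led by Psenen, a subunit of the gamma-secretase that cuts the receptor in the membrane. Psenen was at 11.99, 14.3 and 9.76 FPKM in Ctrl A1, A2 and A8 and at 17.8, 23.7 and 18.5 FPKM in cKO A4, A9 and A10. Every cKO library was above every Ctrl library. Psenen had a log2 fold change of 0.69 (SE 0.18, 95% interval 0.25 to 1.13, limma adjusted p = 0.414). Of the 10 genes of this list, all tested, Psen2, another gamma-secretase subunit, also had cKO units above Ctrl units, and the list's median difference was -0.02. Adam10, the protease that makes the first cut once a ligand has bound, had the highest level of the list, with 25.3 ± 4.74 in Ctrl and 21.9 ± 1.49 in cKO (FPKM, SD, n = 3 each, limma adjusted p = 0.870).

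Among modifiers of receptor and ligand, Lfng, a glycosyltransferase that alters which ligands a receptor answers to, had the highest level of all pathway genes. It was at 54.8, 52.7 and 87.8 FPKM in Ctrl A1, A2 and A8 and at 60.4, 66.7 and 72.7 FPKM in cKO A4, A9 and A10. Like Hes5 it was highest in A8 and lowest in A1 and A2, and the difference on the log2 scale was 0.07 (SE 0.21, limma adjusted p = 0.976). Epn2, an adaptor of endocytosis, which ligands need in order to signal, was at 26.5, 27.0 and 22.4 FPKM in Ctrl A1, A2 and A8. In cKO A4, A9 and A10 Epn2 was at 15.2, 19.0 and 19.6 FPKM, each below every Ctrl unit. Epn2 differed by -0.48 on the log2 scale (SE 0.15, 95% interval -0.83 to -0.13, limma adjusted p = 0.480). The estimate was -0.06 with the oligodendrocyte score as a covariate. As this score did not overlap between the groups, it is hard to tell apart from genotype, and its part in the Epn2 difference was not tested. Mib1, the ubiquitin ligase that drives that endocytosis, differed by -0.13 (SE 0.15, limma adjusted p = 0.914), and of the 8 tested genes of this list 3 had estimates above 0 and 5 below.

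Of the other Hes and Hey genes, 3 of 7 were tested, and all 3 had estimates below 0. Hey2, a target known from vessels and heart, was at 6.29, 6.29 and 5.24 FPKM in Ctrl A1, A2 and A8 and at 4.02, 2.29 and 4.0 FPKM in cKO A4, A9 and A10. Every cKO library was below every Ctrl library. Hey2 had a log2 fold change of -0.67 (SE 0.22, 95% interval -1.19 to -0.15, limma adjusted p = 0.523), and it was -0.41 (SE 0.45) with the oligodendrocyte score as a covariate. Endothelial markers, which could carry Hey2, overlapped between the groups, at 5.48 to 61.8 FPKM summed in Ctrl and 6.51 to 45.9 FPKM in cKO with A8 lowest; their part in the Hey2 difference was not tested. Its promoter held the pair of matches shown above, as that of Hes5 did, while the levels of these genes ran differently over the units. Heyl, another Hey gene, was at 3.65 ± 2.11 in Ctrl and 3.08 ± 0.941 in cKO (FPKM, SD, n = 3 each, limma adjusted p = 0.981).

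The remaining lists held no gene at an unadjusted p under 0.05. Of 10 tested inhibitors and turnover factors, 5 had estimates above 0 and 5 below. Dtx1, a ubiquitin ligase of the Deltex family, had the highest level there, at 26.4 ± 3.15 FPKM in Ctrl and 26.0 ± 0.751 FPKM in cKO, followed by Sel1l at 22.8 ± 2.31 and 21.6 ± 1.87 FPKM (SD, n = 3 each). Of 19 tested coactivators and corepressors, 7 had estimates above 0 and 12 below. Tle4, a Groucho corepressor that Hes proteins recruit, was at 27.7 ± 1.56 FPKM in Ctrl and 32.2 ± 1.77 FPKM in cKO without overlap of units (limma adjusted p = 0.747), and Ncor1, a corepressor, at 25.1 ± 1.43 and 25.1 ± 1.79 FPKM (SD, n = 3 each). Of 8 other receptors and ligands, 2 were tested: Cntn1, a contactin at the cell surface (15.2 ± 3.19 and 16.0 ± 1.501 FPKM), and Notch4, a receptor of vessels (1.17 ± 0.747 and 0.840 ± 0.133 FPKM).

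For each Notch gene the protein-coding genes with the most alike pattern over the 6 units were sought among 11799 candidates, by the root mean square difference of centred log2 values. For Notch1 they were Tnrc6b (0.0258) and Laptm4a (0.0374), for Notch2 Shld2 (0.0468) and Evc (0.0501), and for Notch3 Slc39a14 (0.0437) and Mphosph6 (0.0565). For Jag1 they were Mapk10 (0.0481) and Pcdhga12 (0.0512), for Dner Cops6 (0.0393) and Ndufb5 (0.0473), and for Dll1 Cxcl1 (0.153) and Calb2 (0.181). For Rbpj they were Hcfc1 (0.0290) and Bcl7c (0.0312), for Hes1 Gnb4 (0.0413) and Hbs1l (0.0563), for Hes5 Spon1 (0.0705) and Golga1 (0.0751), and for Hey1 Nfib (0.0236) and Txndc5 (0.0332). None of the 10 Notch genes was among the closest genes of another. With so many candidates and 6 points, close patterns are found for any gene, so these are descriptions.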

How the data were processed

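RNA was measured in 12 libraries of sorted hippocampal astrocytes. The authors deposited 1 table of FPKM values for 56941 genes. Per the submitters' processing notes, FastQC, STAR, featureCounts and DESeq2 were used, with mm10 and GRCm38 as builds; versions and settings are not given in the sources used here. In each library, FPKM times gene length summed to the same total, so per-million scaling was over assigned reads. Repeated symbols (147) were summed, and 310 rows without a symbol were kept under their gene identifier.

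Whole reads were recovered from the steps between low values; 83.8 to 87.8% of values came out whole within 0.02 reads, at 17311884 to 35323303 reads per library. The reads served for floors and for 1 alternative (voom), and cover counting error only.

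The S1 and S2 libraries were averaged within each A number as log2(FPKM + 1), since they correlated at 0.980 to 0.984 within an A number and at 0.788 to 0.896 between; levels printed per unit are mean FPKM. Genes with a mean of at least 1 FPKM (17540) were tested with limma 3.58.1 (R 4.3.3; trend, Benjamini-Hochberg adjustment over all tested genes, threshold 0.05), 3 against 3 units. Fold changes on this scale understate those of low genes. The S numbers occur in both groups; their differences correlated at 0.133 to 0.190 between A numbers, and a fit with them as a block was an alternative. Marker lists were scored as mean log2(FPKM + 1) and compared by two-sided exact permutation tests.

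The 10 genes and all lists were chosen with earlier results of these data known. Named were the 10 genes, in each pathway list the 2 highest in level and any with an unadjusted p under 0.05, the 2 genes most alike to each Notch gene, Tnfrsf1b and Gfap; genes named otherwise, single marker genes included, were chosen after their values were seen. The values of 1 list are not reported here. Alternatives covered pseudocount, filter, scaling, test settings, S1 or S2 alone, marker scores and leaving out each unit. Promoter windows are from RefSeq (GRCm38.p6).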

Additional observations from a re-analysis of the deposited data

How the results depend on the processing

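The count of 0 Notch genes and of 0 other pathway genes called was the same under all 22 alternatives. With limma on single libraries and the A number as a random effect, 112 of all tested genes (0.639%) were called, and 80 (0.456%) with the replicate block (S1 or S2) added, against 0 in the fit of units; leaving out 1 unit gave 0 to 1. At an unadjusted p under 0.05 the fit of units had 1349 genes. The numbers S1 and S2 do not mark a stated shared batch, and the block changed no call of a Notch gene. Adjusted p of the 10 genes stayed between 0.175 (Dll1 without A8) and 1.

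The estimates of Dner (-0.45 to -0.15) and Rbpj (-0.38 to -0.08) kept their sign under every alternative run. The other 8 did not. With the astrocyte score subtracted, an alternative chosen after seeing the data that moved the median of all genes to -0.22, Notch1 was at -0.0229, Jag1 at -0.00217, Hes1 at -0.18, Hes5 at -0.12 and Hey1 at -0.12. This setting lowers every estimate alike, so it could reverse positive estimates only and not those of Dner and Rbpj. For Notch1 and Jag1 it gave the only change of sign. With the oligodendrocyte score as a covariate, Notch2 was at -0.0108, Notch3 at 0.32, Dll1 at 1.22, Hes5 at -0.53 and Hey1 at -0.13. As that score did not overlap between the groups, it is hard to tell apart from genotype. Dll1 was at 1.48 with voom on recovered reads, and Hes1 at -0.0308 with libraries rescaled to one sum of FPKM. Leaving out 1 unit, Hes1 ran from -0.0813 to 0.21, Hes5 from -0.11 to 0.39 and Hey1 from -0.0286 to 0.16, and among marker scores mural from -0.0671 to 0.19, ependymal from -1.09 to 0.11 and progenitor from -0.36 to 0.0550. The cause was not tested. Dll1, Rbpj and Hey2 were below the stricter minimum of 5 FPKM. With 3 units a group, the intervals limit what sizes can be seen, and leaving out A1, A2 or A8 each moved the estimates of Dll1 and Hes5 by over 1.5 times.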
